A study of Mus musculus with 8 samples.

Results

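The collagen chain genes are the mouse genes that encode the α chains of the collagens. They were taken as the protein-coding genes of the deposited count table whose symbol has the form Col, number, a, number, which gave 44 genes among 21811 protein-coding genes and 49315 genes in all. RNA from embryonic hearts at E18.5 had been sequenced from 4 embryos homozygous for CHD4 M195I and from 4 wild-type (WT) embryos. CHD4 is the ATPase of the NuRD chromatin remodelling complex, and M195I is a substitution of 1 of its amino acids. The labels describe M195I as homozygous and name no Cre driver or other allele, and they give no litter, strain or extraction day, so the p-values measure the spread between these samples. The genotypes were compared as M195I against WT, and a positive log2 fold change means a higher level in M195I hearts.

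Collagens are secreted proteins in which 3 α chains wind into a triple helix. Fibrillar collagens form the tensile fibrils of the interstitium, basement membrane collagens form the sheets on which myocytes and vessels rest, and FACITs (fibril-associated collagens with interrupted triple helices) decorate fibrils. Network collagens build filaments and lattices, and membrane collagens are anchored in the plasma membrane. In the heart, fibroblasts are the main source of the fibrillar chains, while basement membrane chains are made by several cell types, among them endothelial cells and myocytes.

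The 6 type IV genes lie as 3 head-to-head pairs, and the sequences at the starts of the 2 pairs with the closest genes are shown here, since the partners in such a pair start next to each other and their levels are compared below. Col4a1 (minus strand) and Col4a2 (plus strand) overlap by 22 annotated bases on chromosome 8, and Col4a3 (plus strand) and Col4a4 (minus strand) are 71 bases apart on chromosome 1. The other pair, Col4a5 and Col4a6, lies on chromosome X with 1308 bases between its genes. The windows are RefSeq promoter windows of build GRCm38.p6, from 250 bases before to 50 bases after the annotated start, written 5′ to 3′ on the strand of the gene. Capitals in the Col4a1 window (chr8:11312777-11313076, minus strand) and in the Col4a2 window (chr8:11312555-11312854, plus strand) mark the 78 bases that both windows contain, read on opposite strands. Capitals in the Col4a4 window (chr1:82586800-82587099, minus strand) mark the 71 bases between the annotated starts of Col4a4 and Col4a3.
Col4a1: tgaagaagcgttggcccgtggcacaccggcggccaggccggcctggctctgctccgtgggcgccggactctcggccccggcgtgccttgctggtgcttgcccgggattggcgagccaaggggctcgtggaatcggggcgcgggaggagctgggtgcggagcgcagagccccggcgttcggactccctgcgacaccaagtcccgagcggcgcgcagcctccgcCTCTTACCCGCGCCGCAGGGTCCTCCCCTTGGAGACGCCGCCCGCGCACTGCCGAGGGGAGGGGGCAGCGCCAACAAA
Col4a2: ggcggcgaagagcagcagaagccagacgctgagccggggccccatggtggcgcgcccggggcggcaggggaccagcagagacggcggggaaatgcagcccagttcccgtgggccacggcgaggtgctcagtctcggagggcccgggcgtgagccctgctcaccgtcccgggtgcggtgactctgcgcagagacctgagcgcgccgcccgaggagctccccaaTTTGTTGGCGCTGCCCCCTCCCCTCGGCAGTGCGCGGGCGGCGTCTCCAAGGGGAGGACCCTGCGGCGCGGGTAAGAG
Col4a4: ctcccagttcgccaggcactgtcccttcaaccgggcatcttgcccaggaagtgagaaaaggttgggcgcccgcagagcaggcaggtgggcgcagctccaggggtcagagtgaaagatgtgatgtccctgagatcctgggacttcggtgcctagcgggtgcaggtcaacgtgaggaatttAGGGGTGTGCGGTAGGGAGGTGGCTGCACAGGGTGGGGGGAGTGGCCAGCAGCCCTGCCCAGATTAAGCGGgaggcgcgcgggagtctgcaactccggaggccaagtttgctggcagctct
The bases shared by Col4a1 and Col4a2 hold the motif GGGCGG on the strand of Col4a2. RefSeq windows were found for 35 of the 44 genes (38 windows), and 60.5% of these windows held GGGCGG on either strand, against 35.7% of all 32851 RefSeq windows of the same length. CCAAT was in 34.2% of the collagen windows and 37.4% of all windows, and TATAAA in 13.2% and 13.6%. No one of these 3 motifs contains another.

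The libraries held 18673488 to 21341235 counts in M195I hearts and 18375951 to 20815388 counts in WT hearts. RNA of airway epithelium was abundant in 5 of the 8 libraries, called here the libraries with airway RNA: Scgb3a2, a secretoglobin of airway secretory cells, was at 176 CPM (the count scaled to a library total of 1e6) or more in M195I replicates 3 and 4 and WT replicates 1, 3 and 4, and at 6.48 CPM or less in the other 3. All other CPM values here use library totals adjusted by TMM factors (edgeR's trimmed mean of M-values). Summed marker levels were 24080 to 29630 CPM in M195I hearts and 28610 to 31970 CPM in WT hearts for cardiomyocytes (1 of 7 markers lower), and 1004 to 1091 CPM against 1049 to 1125 CPM for endothelium (1 higher and 2 lower of 7). They were 1074 to 1260 CPM in M195I hearts and 1248 to 1397 CPM in WT hearts for smooth muscle (1 of 7 lower), and 224 to 274 CPM against 285 to 329 CPM for epicardium (3 of 6 lower). None of 10 airway, 6 Schwann cell or 7 blood markers that were tested passed the threshold. Over all genes tested, 5.75% were higher and 7.49% lower at an edgeR adjusted p below 0.05. The blood sums of the genotypes did not overlap, at 1042 to 1565 CPM in M195I hearts and 1679 to 3217 CPM in WT hearts. The count column of each library file has a header starting with "Male", and Ddx3y, a gene of the Y chromosome, was at 68.5 to 80.5 CPM in 7 libraries and at 36.2 CPM in WT replicate 4. The Y chromosome genes Eif2s3y, Kdm5d and Uty were also lowest in WT replicate 4, at 31.2, 19.55 and 15.8 CPM. In the other libraries they were at 67.7 to 74.7, 34.2 to 42.8 and 24.1 to 28.8 CPM. Whether this bears on the collagen levels of WT replicate 4 was not tested. The part of these RNAs in the collagen results was examined where values are given below and otherwise was not tested.

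Of the 44 genes, 41 had enough counts for testing (at least about 10 counts in 4 libraries), and 7 of the 41 (17.1%) differed between M195I and WT hearts at an adjusted p below 0.05 in the edgeR quasi-likelihood test with Benjamini-Hochberg adjustment over 16372 genes. The share over all genes tested was 13.2%. Col13a1, Col15a1, Col26a1 and Col6a5 were higher in M195I hearts (4 genes, against 5.75% of all genes higher), and Col4a2, Col11a1 and Col22a1 were lower (3 genes, against 7.49% of all genes lower). For 9 of the 41 genes the ranges of the genotypes did not overlap, 5 with M195I above WT and 4 with M195I below it (22.0%, against 18.6% of all genes, 8.8% above and 9.77% below). The median log2 fold change was 0.02 over the chain genes and -8.03e-06 over all genes, with 22 chain genes above 0 and 19 below it. Scaling by library totals in place of TMM factors called 8 chain genes higher and 2 lower, against 16.6% of all genes called, with the median of all genes at 0.05.

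Col10a1, a chain of hypertrophic cartilage, reached at most 4 counts, Col19a1, a FACIT, at most 7 counts, and Col6a4, an alternative chain of type VI collagen, at most 13 counts. For these 3 untested genes the highest library was M195I replicate 4, with 0.192 CPM of Col10a1, 0.336 CPM of Col19a1 and 0.624 CPM of Col6a4. Levels of different genes were compared as CPM per kb of annotated exon. Col9a3 and Col4a3 share 6.07% and 5.65% of their exon bases with opposite-strand genes, the largest such overlaps among the chain genes, and whether reads were counted by strand is not stated in the labels or files. Per kb, the tested chains spanned from 0.0943 CPM per kb for Col22a1 to 367 CPM per kb for Col1a1, as means over the 8 libraries.

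**Figure D1:**
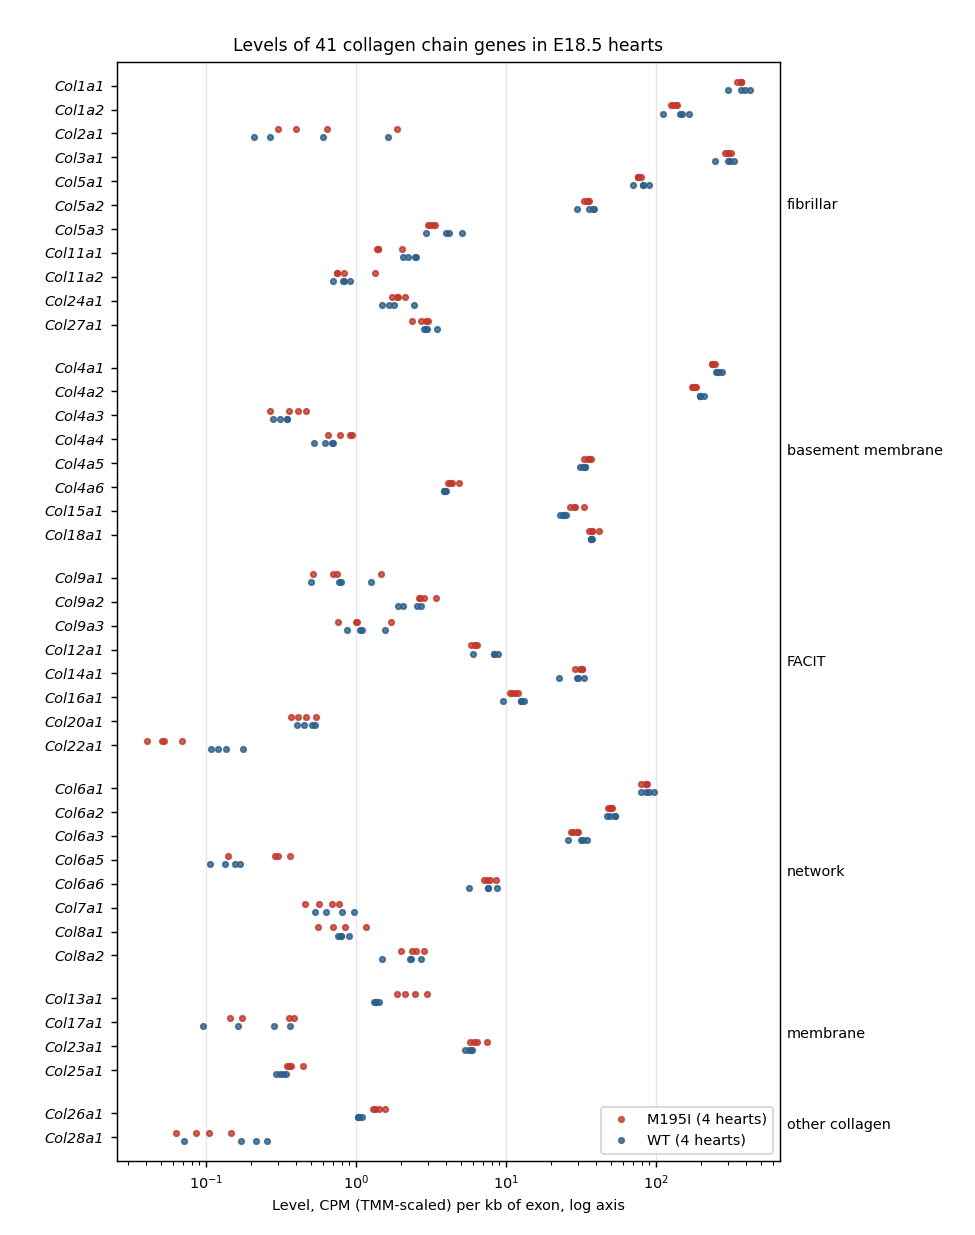
Levels of the 41 tested collagen chain genes in each library, as CPM per kb of exon on a log axis, grouped by class, with M195I hearts above WT hearts in each row. Col1a1, Col3a1, Col4a1, Col4a2 and Col1a2 are the most abundant, while Col13a1, Col26a1, Col11a1, Col22a1 and Col6a5, 5 of the 7 genes that differed, lie near or below 2 CPM per kb.

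Together the chain genes made up 1.389, 1.357, 1.333 and 1.392% of all counts in M195I replicates 1 to 4, and 1.381, 1.173, 1.423 and 1.499% in WT replicates 1 to 4. The WT libraries held both the lowest and the highest share, with all 4 M195I libraries between them. Col1a1, Col1a2 and Col3a1 accounted for 50.5 to 52.6% of the collagen counts in M195I hearts and for 47.6 to 52.6% in WT hearts. Fibrillar chains took 58.6 to 60.8% of collagen counts in M195I hearts and 55.6 to 60.9% in WT hearts, and basement membrane chains took 26.6 to 28.5% and 26.8 to 32.1%.

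WT replicate 2 stood apart from the other libraries for collagen. It was the lowest of the 8 libraries for 21 of the 41 tested chain genes (51.2%), against 16.1% of all genes tested, and for 7 of the 11 fibrillar genes. WT replicate 4 was the highest library for 15 of the 41 (36.6%, against 12.7% of all genes), 8 of them fibrillar. M195I replicate 4 was the highest for 12 of the 41 (29.3%, against 14.7% of all genes), among them Col13a1, Col26a1 and Col6a5. The summed level of 10 fibroblast markers was 750 to 798 CPM in M195I hearts and 694 to 807 CPM in WT hearts, and the 694 CPM was in WT replicate 2. Of those 10 markers, Gsn was higher in M195I hearts and Tcf21 and Dpep1 were lower (30.0% called, against 13.2% of all genes tested). Without WT replicate 2, 3 chain genes were higher and 9 lower, against 1742 of 16584 genes called in that fit. Without WT replicate 4, 3 were higher and 1 lower, against 9.62% of all genes.

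**Figure D2:**
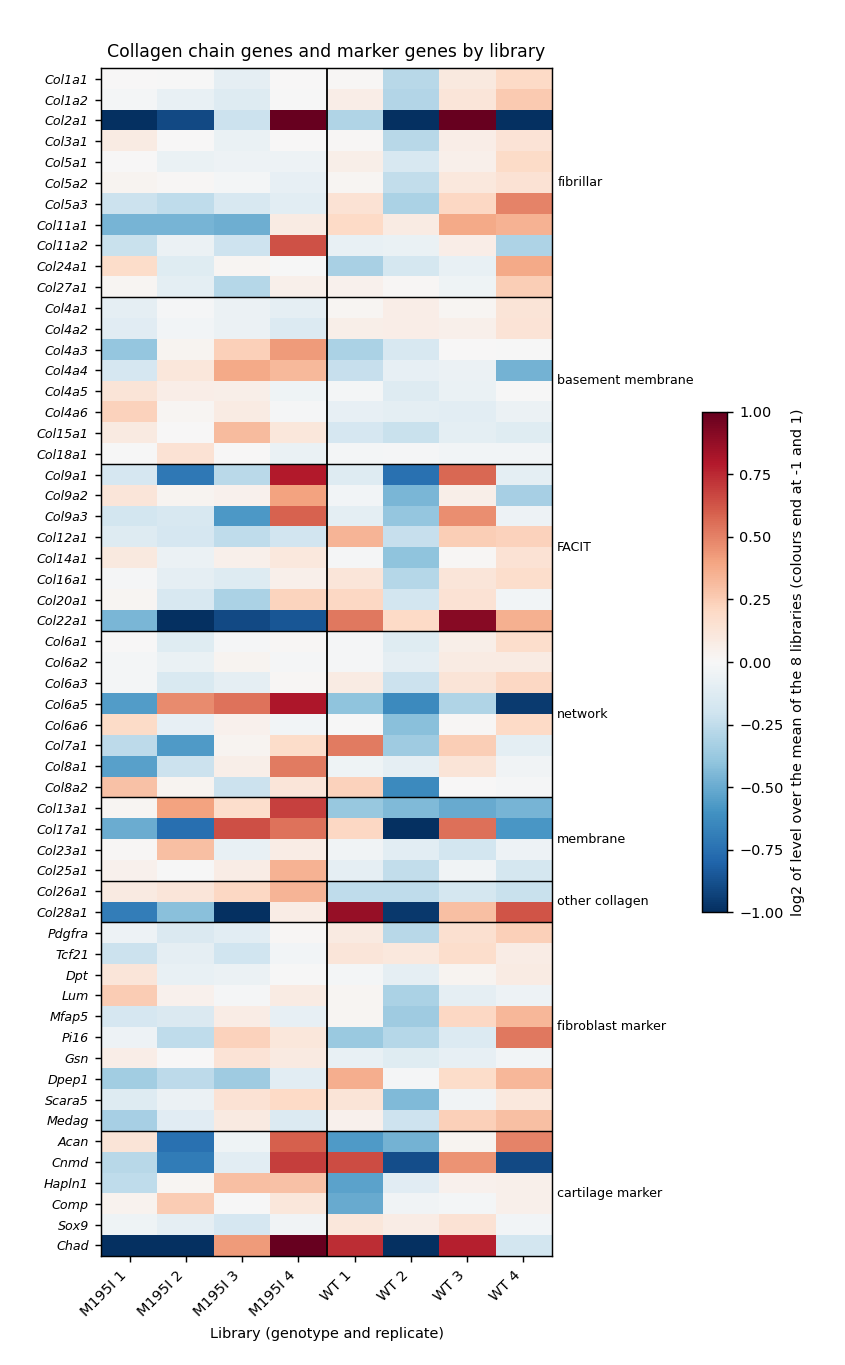
Level of each tested collagen chain gene and of the tested fibroblast and cartilage marker genes in each library, as log2 of the level over the mean of the 8 libraries, with M195I libraries left of WT libraries. The column of WT replicate 2 is blue for most fibrillar genes and M195I replicate 4 is red for Col2a1, Col9a1, Col9a3 and Col11a2.

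Among the 11 fibrillar genes, none was higher and 1, Col11a1, was lower in M195I hearts, with a median log2 fold change of -0.04. Col1a1, the α1 chain of type I collagen, the main fibril protein of the cardiac interstitium, had 2419, 2406, 2269 and 2421 CPM in M195I hearts and 2431, 1983, 2575 and 2767 CPM in WT hearts. Its partner chain Col1a2 had 1685, 1620, 1556 and 1699 CPM in M195I hearts and 1779, 1390, 1853 and 2047 CPM in WT hearts. For Col3a1, the single chain of type III collagen, the values were 3106, 2944, 2805 and 2946 CPM in M195I hearts and 2964, 2426, 3067 and 3226 CPM in WT hearts. For each of these 3 genes the M195I libraries lay inside the range of the WT libraries, whose lowest value was replicate 2 and highest replicate 4. The log2 fold changes were -0.04 ± 0.09 (SE) for Col1a1, -0.11 ± 0.11 for Col1a2 and 0.01 ± 0.08 for Col3a1, with edgeR adjusted p-values of 0.87, 0.61 and 0.95. In bulk RNA, fewer cells of a type and less RNA per cell cannot be told apart.

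Without WT replicate 2, Col1a2 fell in M195I hearts by 0.21 on the log2 scale (edgeR adjusted p = 0.016), while Col1a1 was at -0.12 (adjusted p = 0.10) and Col3a1 at -0.06 (adjusted p = 0.39). The 5 libraries with airway RNA (M195I replicates 3 and 4 and WT replicates 1, 3 and 4) also leave out WT replicate 2, so they are no separate check. In them Col1a2 was at -0.22 (edgeR adjusted p = 0.027). The other 3 libraries are M195I replicates 1 and 2 and a single WT library, replicate 2, which is the low library for these genes. Their values (log2 fold changes of 0.29, 0.25 and 0.32 for Col1a1, Col1a2 and Col3a1) are given as a description, with no test, here and for the genes below.

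**Figure D3:**
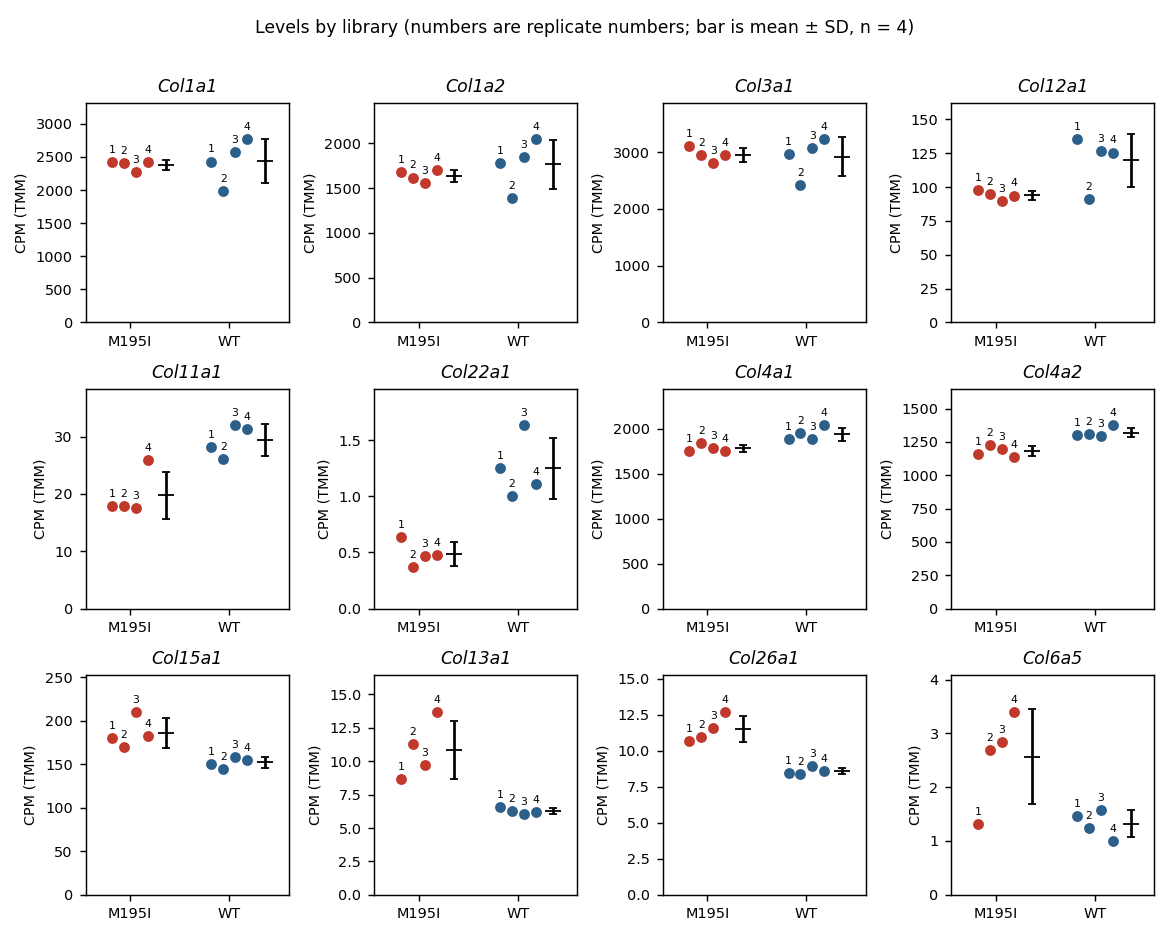
Levels in CPM of 12 collagen chain genes in every library, with M195I hearts left of WT hearts, replicate numbers over the points and a bar for mean ± SD (n = 4). Col1a1, Col1a2, Col3a1 and Col12a1 show WT replicate 2 below the other WT libraries, while the genotypes do not overlap for Col4a1, Col4a2, Col15a1, Col13a1, Col26a1, Col11a1 and Col22a1.

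Col11a1 encodes the α1 chain of type XI collagen, which joins type II collagen in cartilage fibrils and is also made by other mesenchyme. The gene (ENSMUSG00000027966) lies on the plus strand of chromosome 3 from 114030540 to 114220718 in GRCm38. It had 17.9, 17.8, 17.5 and 26.0 CPM in M195I hearts and 28.2, 26.0, 32.0 and 31.3 CPM in WT hearts. M195I replicate 4 lay close to the lowest WT library, and the other 3 M195I libraries lay well below all WT libraries. Col11a1 averaged 19.8 ± 4.12 CPM in M195I hearts and 29.4 ± 2.77 CPM in WT hearts (SD, n = 4 each), and fell by 0.57 ± 0.14 (SE) on the log2 scale (edgeR adjusted p = 0.031). The call was kept without M195I replicate 4 or WT replicate 2, lost without any 1 of the other 6 libraries (edgeR adjusted p up to 0.082), and lost among libraries with airway RNA (-0.49, edgeR adjusted p = 0.13) and with library totals (-0.52, 0.054). Leaving out 1 library, the log2 fold change of Col11a1 was -0.73 to -0.51.

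Col2a1, the chain of type II collagen and a defining product of chondrocytes, had 1.80, 2.37, 3.82 and 11.2 CPM in M195I hearts and 3.59, 1.249, 9.79 and 1.61 CPM in WT hearts. The 2 high libraries came from different genotypes, and the log2 fold change was 0.24 ± 0.89 (edgeR adjusted p = 0.92). Col9a1, Col9a3 and Col11a2, other chains of cartilage collagens, were also highest in M195I replicate 4, at 7.44, 6.57 and 9.16 CPM. So were chain genes of other classes, among them Col4a3, Col8a1, Col13a1 and Col25a1. The cartilage protein gene Chad had 1.16, 0.605, 10.47 and 16.3 CPM in M195I hearts and 13.0, 0.549, 13.3 and 6.83 CPM in WT hearts, and was high in the 5 libraries with airway RNA. Other cartilage markers were mixed. Sox9 was at 18.2 to 19.96 CPM in M195I hearts and 20.1 to 22.6 CPM in WT hearts. Acan was highest in M195I replicate 4, at 24.1 CPM, and was at 17.4 CPM in M195I replicate 1. Cnmd was highest in M195I replicate 4 and WT replicates 1 and 3, at 1.34, 1.31 and 1.14 CPM, but was at 0.444 CPM in WT replicate 4. The scarce markers Matn1 and Snorc had their 2 highest values in M195I replicate 4 and WT replicate 3, the libraries high for Col2a1. Matn3, Ucma and Epyc did not. Matn3 was at 0.206 CPM in M195I replicate 3 and 0.198 CPM in WT replicate 3. Ucma was at 0.155 CPM in M195I replicate 3 and 0.144 CPM in M195I replicate 4. Epyc was lowest of all libraries in M195I replicate 4, at 0.240 CPM. None of the 6 cartilage markers tested passed the threshold, their list summed to 43.2 to 76.8 CPM in M195I hearts and 45.6 to 66.7 CPM in WT hearts, and 5 further markers (Matn1, Matn3, Epyc, Snorc and Ucma) did not exceed 0.742 CPM in any library.

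The type V chains, which nucleate type I fibrils and limit their width, overlapped between genotypes: Col5a1 had 639 to 670.5 CPM in M195I hearts and 599 to 761 CPM in WT hearts, and Col5a2 had 318 to 342 CPM and 284 to 372 CPM. Col5a3, the scarcest chain of that type, had 20.6 to 22.8 CPM in M195I hearts and 19.8 to 34.7 CPM in WT hearts (log2 fold change -0.35 ± 0.15, edgeR adjusted p = 0.21). Without WT replicate 2, Col5a1 (-0.14) and Col5a3 (-0.48, edgeR adjusted p = 0.0021) were among the 9 lower genes. Col24a1 and Col27a1, later described fibrillar chains, had log2 fold changes of 0.05 and -0.14, and neither passed the threshold.

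The 8 basement membrane genes held 1 higher gene, Col15a1, and 1 lower gene, Col4a2, and had a median log2 fold change of 0.14. The α1 and α2 chains of type IV collagen, which pair as the common basement membrane trimer, were lower in every M195I library than in every WT library, though Col4a2 alone passed the threshold. Col4a2 (ENSMUSG00000031503, chromosome 8, 11312805 to 11449287, plus strand) had 1158, 1229, 1199 and 1140.2 CPM in M195I hearts and 1304, 1308, 1293 and 1374 CPM in WT hearts. Col4a1, whose start region is printed above with that of Col4a2, had 1754, 1842, 1788 and 1752 CPM in M195I hearts and 1886, 1951, 1884.5 and 2039 CPM in WT hearts. Col4a2 averaged 1182 ± 39.9 CPM in M195I hearts and 1320 ± 36.5 CPM in WT hearts (SD, n = 4 each) and fell by 0.16 ± 0.04 on the log2 scale (edgeR adjusted p = 0.015). For Col4a1 the decrease was 0.12 ± 0.04 on the log2 scale (edgeR adjusted p = 0.063). The Col4a2 call was lost without WT replicate 4 (-0.14, edgeR adjusted p = 0.056). Leaving out 1 library, its log2 fold change was -0.18 to -0.14, and its value in the 3 libraries with little airway RNA was -0.13. Col4a1 passed the threshold with DESeq2 (adjusted p = 0.0039) and limma-voom (0.048). In edgeR it also passed with a fit that was not robust, a replicate block, and airway, cartilage or fibroblast markers as a covariate (adjusted p = 0.036 to 0.045). It did not pass with any other scaling or filter, such as library totals (-0.07, edgeR adjusted p = 0.20) or no filter beyond 1 count in total (edgeR adjusted p = 0.13). Nor did it pass in any of the 8 fits that left out 1 library (edgeR adjusted p of 0.063 or more).

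The other 4 type IV chains had positive log2 fold changes, and none passed the threshold in the main fit. With library totals, where the median of all genes was 0.05, Col4a4, Col4a5 and Col4a6 passed it (edgeR adjusted p = 0.039, 0.017 and 0.014). Col4a5 and Col4a6, the X-linked pair, were at 249, 238, 237 and 221 CPM and at 38.8, 33.5, 35.0 and 32.7 CPM in M195I hearts, and at 224, 208, 217 and 227 CPM and at 31.2, 30.8, 30.7 and 31.8 CPM in WT hearts. The genotypes overlapped for Col4a5 (0.11 ± 0.04, edgeR adjusted p = 0.11) and not for Col4a6 (0.17 ± 0.06, edgeR adjusted p = 0.059). Col4a4, known with Col4a3 and Col4a5 from the glomerular basement membrane of the kidney, had 6.87, 8.33, 10.01 and 9.64 CPM in M195I hearts and 6.58, 7.29, 7.42 and 5.55 CPM in WT hearts (0.37 ± 0.13, edgeR adjusted p = 0.070). Col4a3, the scarcest chain of the class per kb, had 2.64, 3.54, 4.07 and 4.65 CPM in M195I hearts and 2.77, 3.10, 3.46 and 3.44 CPM in WT hearts (0.22 ± 0.18, edgeR adjusted p = 0.47). M195I replicate 1 lay below the WT range for Col4a3 and inside it for Col4a4, and the other 3 M195I libraries lay above the WT range for both genes.

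Col15a1 and Col18a1 encode the multiplexins, proteoglycan-like collagens that link basement membranes to the matrix beneath. Col15a1, in mice needed for normal heart and skeletal muscle, is ENSMUSG00000028339 on the plus strand of chromosome 4, from 47208161 to 47313167. It had 180.1, 169.6, 211 and 183 CPM in M195I hearts and 151, 145, 158 and 155 CPM in WT hearts, so every M195I library exceeded every WT library. The means were 186 ± 17.5 CPM in M195I hearts and 152 ± 5.95 CPM in WT hearts (SD, n = 4 each), with a log2 fold change of 0.29 ± 0.06 (edgeR adjusted p = 0.0062), and the call was kept in all 8 fits that left out 1 library. Col15a1 was also higher in M195I hearts among the libraries with airway RNA (0.34, edgeR adjusted p = 0.0014), and its value in the 3 libraries with little airway RNA was 0.28. Col18a1, the source of endostatin, had 263, 290.1, 263 and 251 CPM in M195I hearts and 259, 261, 257 and 258 CPM in WT hearts, with M195I libraries on both sides of the WT range (0.04 ± 0.04, edgeR adjusted p = 0.57).

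**Figure D4:**
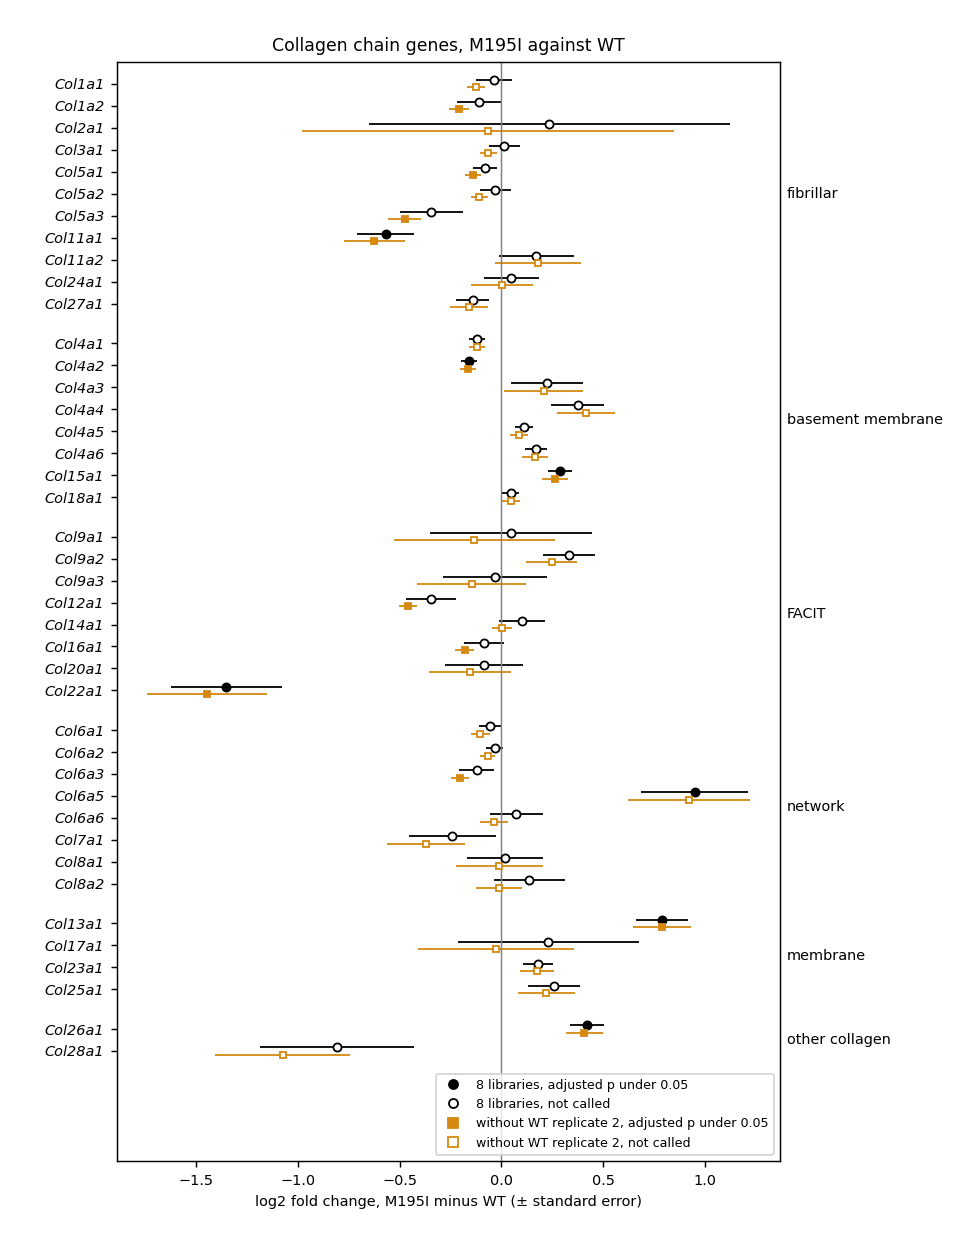
Log2 fold change (M195I minus WT, ± SE) of each tested collagen chain gene with all 8 libraries (black) and without WT replicate 2 (orange), filled where the edgeR adjusted p was below 0.05. Most fibrillar genes move to the left without WT replicate 2, and Col13a1, Col15a1, Col26a1 and Col22a1 stay close to their values.

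Among the 8 tested FACIT genes 1 was lower, Col22a1, and none higher, with a median log2 fold change of -0.06. Col22a1, whose protein marks tissue junctions such as that of muscle and tendon, lies on the minus strand of chromosome 15 from 71795795 to 72034227 (ENSMUSG00000079022). It was the scarcest tested chain, at 0.634, 0.372, 0.464 and 0.480 CPM in M195I hearts and 1.251, 0.999, 1.63 and 1.11 CPM in WT hearts, from 8 to 12 counts per M195I library and 20 to 33 counts per WT library. The genotypes did not overlap, and the gene fell by 1.35 ± 0.27 on the log2 scale (edgeR adjusted p = 0.0043). It was also lower in each of the 8 fits that left out 1 library. Col22a1 passed the count filter through its WT libraries, so these calls depend on the group where it is higher. With a filter of at least 1 CPM in at least 4 libraries, the gene was not tested. DESeq2 gave it no adjusted p, and its value in the 3 libraries with little airway RNA was -0.99.

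Col12a1 and Col14a1 bind the surface of type I fibrils. Col12a1 had 97.8, 94.9, 89.5 and 93.8 CPM in M195I hearts and 135, 90.9, 127 and 126 CPM in WT hearts. WT replicate 2 fell among the M195I libraries and the other 3 WT libraries lay above all of them. The log2 fold change of -0.35 ± 0.12 did not pass the threshold (edgeR adjusted p = 0.12), while without WT replicate 2 it was -0.46 (adjusted p = 3.4e-05) and with the fibroblast markers as a covariate -0.32 (adjusted p = 0.039). Col14a1, the most abundant FACIT per kb, had 224, 201, 217 and 226 CPM in M195I hearts and 208, 158, 211 and 231 CPM in WT hearts, with full overlap (0.10 ± 0.11, edgeR adjusted p = 0.65). Of the type IX chains, which coat cartilage fibrils, Col9a2 had a log2 fold change of 0.33 ± 0.13 (edgeR adjusted p = 0.10), with Col9a1 at 0.05 and Col9a3 at -0.03. Col16a1 (-0.08) and Col20a1 (-0.09) did not pass the threshold in the main fit. Without WT replicate 2, Col16a1 passed it, at -0.18 (edgeR adjusted p = 0.026).

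The 8 tested network genes held 1 higher gene, Col6a5, and none lower, and their median log2 fold change was -0.01. The 3 common chains of type VI collagen, which forms beaded filaments around cells, overlapped between genotypes. Col6a1, the most abundant of them per kb, had 377, 347, 374 and 379 CPM in M195I hearts and 374, 346, 391.8 and 424 CPM in WT hearts (-0.06 ± 0.06, edgeR adjusted p = 0.59). Col6a2 (-0.03) and Col6a3 (-0.12) did not pass the threshold, and Col6a3 did without WT replicate 2, at -0.20. Col6a5, an alternative α chain, is ENSMUSG00000091345 on the minus strand of chromosome 9, from 105856078 to 105960643. Its levels were 1.32, 2.70, 2.84 and 3.41 CPM in M195I hearts and 1.47, 1.249, 1.58 and 1.00 CPM in WT hearts, from 25 to 71 and 18 to 32 counts. M195I replicate 1 lay inside the WT range and the other 3 M195I libraries above it. Col6a5 averaged 2.57 ± 0.885 CPM in M195I hearts and 1.33 ± 0.257 CPM in WT hearts (SD, n = 4 each), with a log2 fold change of 0.95 ± 0.26 (edgeR adjusted p = 0.026). That call was kept without M195I replicate 1 or WT replicate 3, and was lost without any 1 of the other 6 libraries (edgeR adjusted p up to 0.085) and with limma-voom (0.89, adjusted p = 0.090). Leaving out 1 library, the log2 fold change of Col6a5 was 0.79 to 1.16. Col6a6 (0.07), the anchoring-fibril chain Col7a1 (-0.24) and the short-chain collagens Col8a1 (0.02) and Col8a2 (0.14) did not pass the threshold.

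All 4 membrane collagen genes had positive log2 fold changes, with a median of 0.24, and 1 of them, Col13a1, passed the threshold. Col13a1 encodes a transmembrane collagen of cell-matrix contacts, known from the neuromuscular junction. It lies on the minus strand of chromosome 10 from 61838236 to 61979108 (ENSMUSG00000058806). The gene had 8.66, 11.3, 9.70 and 13.7 CPM in M195I hearts and 6.58, 6.29, 6.03 and 6.22 CPM in WT hearts. Every M195I library exceeded every WT library, and the M195I libraries were the more spread. The averages were 10.8 ± 2.20 CPM in M195I hearts and 6.28 ± 0.228 CPM in WT hearts (SD, n = 4 each), a log2 fold change of 0.79 ± 0.13 (edgeR adjusted p = 0.00077). The call was kept in all 8 fits that left out 1 library and in the libraries with airway RNA (0.90, edgeR adjusted p = 0.00068), and the value in the 3 libraries with little airway RNA was 0.68. Col23a1, the most abundant membrane collagen gene per kb, had 34.9, 42.7, 32.9 and 36.4 CPM in M195I hearts and 33.8, 32.2, 30.5 and 33.3 CPM in WT hearts, with M195I replicate 3 inside the WT range (0.18 ± 0.07, edgeR adjusted p = 0.12). Col25a1, a transmembrane collagen of neurons and developing muscle, was at 0.26 (edgeR adjusted p = 0.22) with no overlap between genotypes, and Col17a1, a hemidesmosome component, was at 0.23 with overlap.

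Col26a1 and Col28a1 belong to none of these classes. Col26a1 (ENSMUSG00000004415, chromosome 5, 136741759 to 136883209, minus strand) had 10.7, 10.9, 11.6 and 12.7 CPM in M195I hearts and 8.43, 8.39, 8.90 and 8.61 CPM in WT hearts. The genotypes did not overlap, and the gene averaged 11.5 ± 0.911 CPM in M195I hearts and 8.58 ± 0.233 CPM in WT hearts (SD, n = 4 each), with a log2 fold change of 0.42 ± 0.08 (edgeR adjusted p = 0.0041). It was higher in all 8 fits that left out 1 library and in the libraries with airway RNA (0.49, edgeR adjusted p = 0.0074), and its value in the 3 libraries with little airway RNA was 0.37. Col28a1, a von Willebrand factor domain collagen, had 0.309 to 0.720 CPM in M195I hearts and 0.350 to 1.251 CPM in WT hearts (-0.81 ± 0.38, edgeR adjusted p = 0.19).

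Within the 5 libraries with airway RNA, 5 chain genes were higher and 8 lower in M195I hearts, against 9.96% of all genes called in either direction there. These are M195I replicates 3 and 4 and WT replicates 1, 3 and 4, without the low WT replicate 2. With the fibroblast markers as a covariate, 5 chain genes were higher and 6 lower, against 16.1% of all genes called.

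Other genes act on the chains after translation. Their lists were chosen with earlier results of these data known. Of 19 genes for chain modification and folding, 7 were lower in M195I hearts (36.8%, against 7.49% of all genes tested) and none higher. The median log2 fold change of this list was -0.09. The 7 lower genes comprised the prolyl 4-hydroxylase subunits P4ha1 (-0.55), P4ha2 (-0.61) and P4ha3 (-0.52), the prolyl 3-hydroxylase P3h2 (-0.45) and the lysyl hydroxylases Plod1 (-0.44), Plod2 (-0.74) and Plod3 (-0.16). P3h2 and Plod3 share 28.4% and 11.7% of their exon bases with the opposite-strand genes Gm4524 and Znhit1, so their counts are uncertain there. Serpinh1, the collagen chaperone HSP47 and the most abundant gene of the list per kb, averaged 829 ± 8.41 CPM in M195I hearts and 869 ± 42.5 CPM in WT hearts (SD, n = 4 each) and did not pass the threshold (-0.07 ± 0.04, edgeR adjusted p = 0.33).

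Of 13 tested genes for propeptide cleavage and crosslinking, 2 were lower (15.4%, against 7.49% of all genes tested) and none was higher. They were the lysyl oxidase-like genes Loxl2 (-0.45, edgeR adjusted p = 0.00066) and Loxl4 (-1.06, edgeR adjusted p = 0.018). Loxl4 was scarce, at 0.845, 0.837, 1.289 and 1.151 CPM in M195I hearts and 1.741, 1.299, 2.968 and 2.611 CPM in WT hearts. M195I replicate 3 thus lay just below WT replicate 2. The peroxidasin gene Pxdn, which crosslinks type IV collagen, was at 0.04 (edgeR adjusted p = 0.61). Among 17 collagen receptors and fibril partners, 2 passed the threshold (11.8%, against 13.2% of all genes tested). The type IV collagen receptor subunit Itga1 fell by 0.44 on the log2 scale (edgeR adjusted p = 1.1e-05). Ddr1, a receptor tyrosine kinase for collagen, had a log2 fold change of 0.23 (edgeR adjusted p = 0.00085) and was the higher gene of that list. Sparc, a collagen-binding protein and the most abundant of these partners per kb, was at -0.11 (adjusted p = 0.083).

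**Figure D5:**
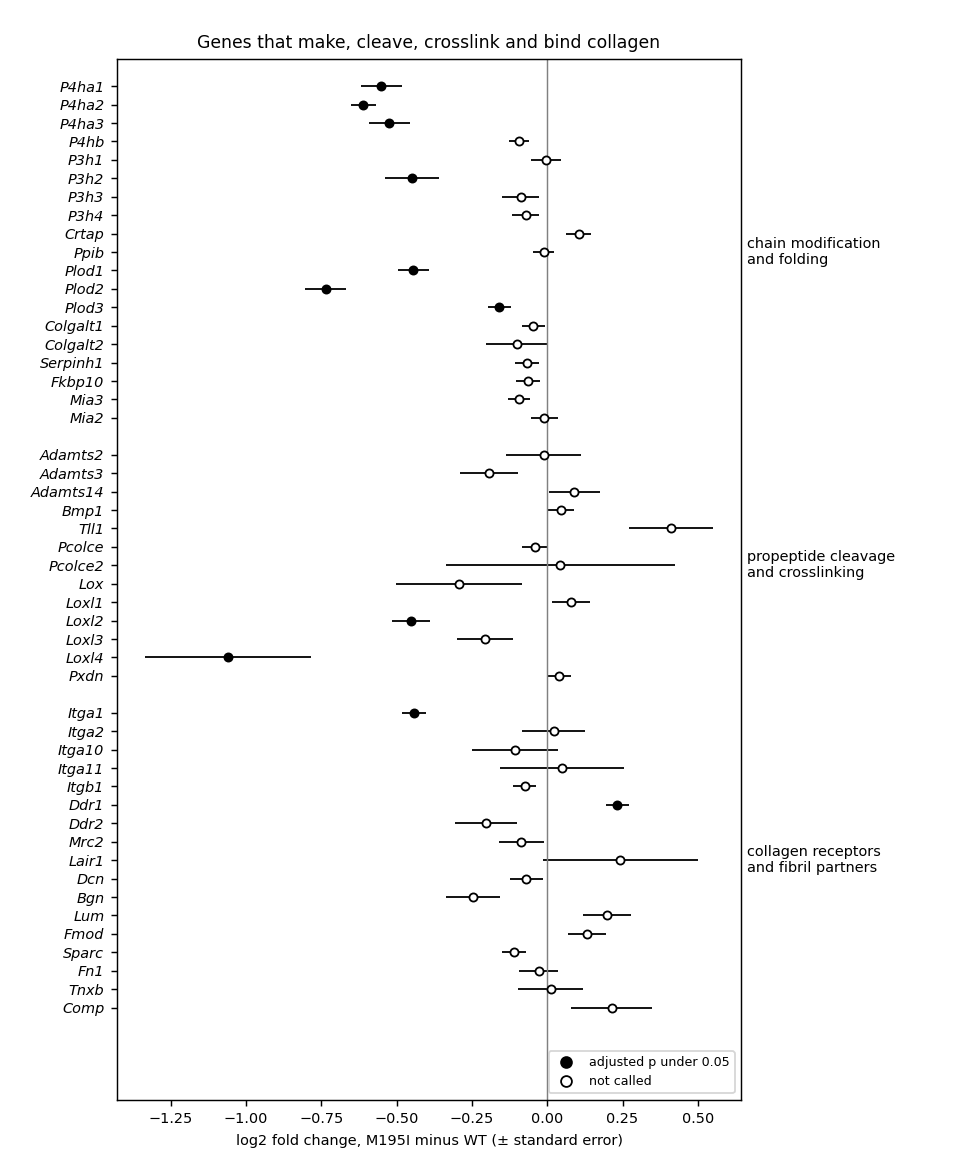
Log2 fold change (M195I minus WT, ± SE) of the tested genes of 3 lists that act on collagen, filled where the edgeR adjusted p was below 0.05. The lower genes of the first list are hydroxylases, and Ddr1 is the gene that was higher.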

How the data were processed

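RNA of 8 hearts was extracted with Trizol and made into libraries with a TruSeq kit, as the labels' protocols give it. The submitters' processing notes name Trimmomatic 0.36, STAR 2.5.2b, featureCounts of Subread 1.5.2 and the build GRCm38. The authors deposited raw counts per gene, as 1 table of the series and 1 file per library, and 0 values differed between the 2 forms. Symbols came from GENCODE M21, which named 48970 of 49315 genes; coordinates are those of the deposited files.

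The members and gene lists were chosen with earlier results of these data known. Genes were kept by filterByExpr (minimum count 10), which left 16372, scaled by TMM (factors 1.009 to 1.033 in M195I hearts, 0.963 to 0.9934 in WT hearts) and tested with edgeR 4.0.16 (robust quasi-likelihood fit, R 4.3.3), with Benjamini-Hochberg adjusted p-values called below 0.05. CPM are counts scaled to a TMM-adjusted library total of 1e6 (for Scgb3a2, to the unadjusted total), and CPM per kb divides by the merged exon length in the annotation. The precision of a gene rests on its count, and scarce chains have few. Values per library are given for each chain gene that passed the threshold, the most abundant of each class per kb, Col1a1, Col1a2, Col3a1, Col2a1 and the type IV genes. Genes of other lists are named up to 4 per direction by adjusted p, with the most abundant per kb. The other hydroxylases and the markers were named after their values were seen, as were Chad, the Y chromosome genes, Col5a3 and Col12a1. Alternatives were other scalings and filters, DESeq2 1.42.0, limma-voom (limma 3.58.1), a replicate block, marker covariates, subsets of libraries and leaving out each library. No pair of libraries within a genotype agreed within sampling noise (chi-square per degree of freedom 2.88 to 9.293).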

Additional observations from a re-analysis of the deposited data

Results flagged for a closer look

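In 5 of 106 groups of 4 libraries examined, 1 library lay far from the other 3 (Dixon's test at the 95% level), where chance gives about 1 in 20. Col11a1 was at 25.95 CPM in M195I replicate 4, against 17.48 to 17.85 CPM in the other M195I libraries. Col11a2 was at 9.162 CPM in the same library, against 5.071 to 5.676 CPM in the others of its genotype. Col1a1 was at 2269 CPM in M195I replicate 3, below 2406 to 2421 CPM in the other M195I libraries. Col6a1 was at 346.6 CPM in M195I replicate 2, below 374.3 to 378.6 CPM in the other M195I libraries. Col16a1 was at 64.28 CPM in WT replicate 2, below 84.87 to 88.21 CPM in the other WT libraries.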

How the results depend on the processing

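Where a value below differs from the main one, the cause was not tested. For 30 named genes, 19 of them chain genes, 618 alternative values kept direction and side of the threshold, 30 passed it newly, 30 no longer passed it and 11 turned. Over all 41 tested chain genes, the log2 fold change had the other sign in 51 of 941 alternative values, spread over 23 genes. Chain genes higher in M195I hearts numbered 8 with library totals (16.6% of all genes called), 8 with no filter beyond 1 count in total (8.46%), 7 with airway markers (17.3%) and 7 with cartilage markers (16.2%) as a covariate, and 10 in libraries with Scgb3a2 under 10 CPM (8.38%). That last fit has 1 WT library, assumed to vary like the M195I libraries, and its counts are no test of the genotype. Chain genes lower numbered 5 with a fit that was not robust (12.5% of all genes called), 8 in libraries with Scgb3a2 of at least 10 CPM (9.96%), 1 in those under it, and 6 with fibroblast markers as a covariate, an alternative chosen after seeing the data. Over all genes, 942 were higher and 1226 lower; 1856 were higher with library totals, 609 higher with Scgb3a2 of at least 10 CPM, and 595 higher and 812 lower under it. Leaving out 1 library gave 3 to 5 chain genes higher and 1 to 9 lower, 579 to 850 of all genes higher and 899 to 1137 lower, and a difference in the collagen share of counts of -0.06669 to 0.04195 percentage points. Col1a1 turned to 0.0151 with library totals and 0.29 with Scgb3a2 under 10 CPM; leaving out 1 library it ranged from -0.123 (without WT replicate 2) to 0.0302 (without WT replicate 4). In the libraries with Scgb3a2 under 10 CPM, Col1a2 turned to 0.25 and Col6a1 to 0.0717. Col3a1 turned to -0.11 with Scgb3a2 of at least 10 CPM, -0.0111 without M195I replicate 1 and -0.0650 without WT replicate 2, and reached 0.0655 without WT replicate 4. Col2a1 turned to -0.614 without M195I replicate 4, -0.0677 without WT replicate 2 and -0.0251 without WT replicate 4, and reached 1.16 without WT replicate 3.

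Replicate numbers are shared by the genotypes, and the deviations of same-numbered libraries correlated at -0.516, 0.774, 0.562 and 0.102 for numbers 1 to 4. Not every library correlated best with its own number. The labels give no litter, and these correlations cannot tell whether same-numbered libraries share a litter or batch. With the replicate block, 8 chain genes were called, the same 7 and Col4a1, and 15.0% of all genes. DESeq2 called 8 chain genes, 6 of them shared, with Col4a1 and Col12a1 added. Scarce chains such as Col22a1 and Col6a5 rest on few counts per library.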

Other observations

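Levels of partner chains per kb were set against each other within each library. Col1a2 over Col1a1 was 0.364 ± 0.0067 in M195I hearts and 0.382 ± 0.0089 in WT hearts (SD, n = 4 each), with ranges of 0.356 to 0.371 and 0.370 to 0.391. Col3a1 over Col1a1 was 0.8292 ± 0.020 in M195I hearts and 0.802 ± 0.018 in WT hearts, from 0.814 to 0.858 and 0.780 to 0.818. Both ratios overlapped between genotypes at the edge of their ranges. Col4a2 over Col4a1 was 0.747 ± 0.0098 in M195I hearts and 0.767 ± 0.011 in WT hearts, from 0.734 to 0.756 and 0.756 to 0.780. The ratios of Col5a2 to Col5a1, Col6a2 and Col6a3 to Col6a1, Col4a4 to Col4a3, Col4a6 to Col4a5 and Col8a2 to Col8a1 overlapped more widely. Col5a2 over Col5a1, for example, ranged from 0.4375 to 0.4705 in M195I hearts and from 0.419 to 0.464 in WT hearts. The spread of the abundant fibrillar chains differed between genotypes, with coefficients of variation of 3.1% in M195I hearts and 13.7% in WT hearts for Col1a1, 4.01% and 15.6% for Col1a2, and 4.17% and 11.9% for Col3a1 (n = 4 each). That difference in spread was not tested.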
